A study of Mus musculus with 6 samples.

Results

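The collagen genes were followed on oligonucleotide arrays of the mouse stria vascularis, the vascularised epithelium of the cochlear lateral wall that secretes potassium into endolymph. On these arrays a probe set, made of several short probes that target the 3' part of a transcript, measures a gene. Every probe set whose single gene symbol has the form Col, number, a, number was taken, which gave 82 of the 45037 probe sets that are not controls, for 42 genes. By collagen class these were 11 fibrillar, 6 basement membrane, 9 fibril-associated and 16 other genes. The arrays held RNA from mice at postnatal day 10, before hearing starts. There were 3 arrays of mice heterozygous for a knockout of Slc26a4, the gene of the anion exchanger pendrin (replicates 1, 3 and 5), and 3 of Slc26a4 knockout mice (replicates 2, 4 and 6), so the control mice also carry 1 knockout allele. The labels name no strain and do not say whether an array is 1 animal or a pool, so a p-value here reflects only how far these arrays spread, which may be technical. In a bulk sample, fewer cells of a type and less RNA per cell cannot be told apart.

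Collagens are built from chains that wind into a triple helix of repeated glycine-containing triplets. Fibrillar collagens assemble into the banded fibrils of bone, cartilage and ligament, fibril-associated collagens sit on the surface of those fibrils, and type IV chains form the network of basement membranes. In the lateral wall the spiral ligament, which lies behind the stria, is rich in fibrils that hold types I, II, IX and XI. Strial capillaries have basement membranes with type IV chains.

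Before the collagens, the targeted gene and the tissue were checked. The mean signal of Slc26a4 was 492 ± 446 in heterozygous and 112 ± 39.4 in knockout arrays (SD, n = 3 each), and its groups did not overlap (log2 difference -1.69, limma adjusted p = 0.371). The place of its probe set relative to the deleted part is not given in the sources used here. All 7 marginal cell markers and all 5 basal cell markers on the array lay above the filter on dim probe sets, as did 7 of 8 intermediate cell markers, with Tyrp1 below it. All 7 spiral ligament fibrocyte markers lay above it too, so passing the filter cannot tell stria from the rest of the lateral wall. Knockout replicate 4 stood apart, with a summed signal of 2429 over 7 endothelial markers against 5148 to 9146 in the other arrays, so where leaving it out moved a collagen value by over 1.5 times, the value without it is given too. Heterozygous replicate 5 differed as well. Its summed signal over 5 markers of root, spindle and outer sulcus cells, Slc26a4 among them, was 24815 against 15010 to 19976 in the other arrays. Slc26a4 itself gave 1006 there, against 221 and 248 in heterozygous replicates 1 and 3.

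The sequences before the start sites are shown for 4 collagen genes that were higher in knockout arrays, 1 or more from each class with such genes, because they differ in base composition and in their core promoter letters. Each is the 250 bases before the annotated start, read from the RefSeq promoter table of build GRCm38.p6 on the gene's own strand. The capitals mark 3 motifs searched on both strands, namely TATAAA (the letters of a TATA box), CCAAT (the core that the factor NF-Y binds) and GGGCGG (the GC box of Sp1 factors).
Col1a2, chr6:4505368-4505617, plus strand: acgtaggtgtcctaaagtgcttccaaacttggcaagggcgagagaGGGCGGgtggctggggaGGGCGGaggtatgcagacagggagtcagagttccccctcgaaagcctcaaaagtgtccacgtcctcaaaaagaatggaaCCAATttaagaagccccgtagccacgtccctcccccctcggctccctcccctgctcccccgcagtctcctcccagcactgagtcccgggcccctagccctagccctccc
Col3a1, chr1:45311288-45311537, plus strand: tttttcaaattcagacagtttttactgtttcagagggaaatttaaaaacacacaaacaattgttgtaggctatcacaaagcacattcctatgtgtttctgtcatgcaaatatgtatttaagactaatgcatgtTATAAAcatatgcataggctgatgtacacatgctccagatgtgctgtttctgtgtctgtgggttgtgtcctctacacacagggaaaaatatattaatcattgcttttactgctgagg
Col9a2, chr4:121039316-121039565, plus strand: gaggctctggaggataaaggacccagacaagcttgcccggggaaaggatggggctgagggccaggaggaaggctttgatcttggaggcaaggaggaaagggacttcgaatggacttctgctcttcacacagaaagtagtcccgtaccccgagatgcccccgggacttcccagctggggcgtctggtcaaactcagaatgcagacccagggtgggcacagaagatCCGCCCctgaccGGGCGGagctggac
Col8a2, chr4:126286544-126286793, plus strand: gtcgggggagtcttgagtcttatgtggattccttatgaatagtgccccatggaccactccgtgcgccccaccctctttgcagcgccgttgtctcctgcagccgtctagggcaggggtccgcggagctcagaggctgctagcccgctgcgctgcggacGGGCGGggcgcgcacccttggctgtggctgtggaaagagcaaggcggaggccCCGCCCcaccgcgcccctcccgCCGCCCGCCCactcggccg
Col3a1 had a GC content of 35.2% with 1 TATAAA, whose first base lies 117 bases before the start, and neither of the other motifs. Col1a2 had a CCAAT at 109 bases and a GGGCGG at 205 and at 188 bases before the start, with 62.0% GC. Col9a2 held 2 GGGCGG, at 26 and 14 bases, and Col8a2 held 4, between 93 and 15 bases before the start, of which the 2 nearest the start overlap. Matches of different motifs did not overlap in any collagen window. An entry was found for 33 of the 42 genes, in 36 windows, whose median GC content was 59.0% against 52.4% over all 32851 windows in the table. GGGCGG occurred in 58.3% of the collagen windows against 32.7% of all windows, CCAAT in 36.1% against 33.8%, and TATAAA in 13.9% against 12.4%. The search describes letters in these windows and says nothing of which factors bind there.

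Signals were given on a linear scale and tested as log2(signal + 16), and differences below are knockout minus heterozygous on that scale. Probe sets with a mean signal under 46.3, the 40th percentile, were not tested, and 62 of the 82 collagen probe sets passed. For each gene the brightest tested probe set was used, which left 37 genes. The other 5, Col6a4, Col6a5, Col10a1, Col17a1 and Col19a1, had no probe set above the filter, and the mean heterozygous signals of all their probe sets lay between 2.17 and 27.6. Col10a1 is the collagen of hypertrophic cartilage and Col17a1 that of epidermal hemidesmosomes.

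By heterozygous signal, the collagens with the highest ranks were Col9a3, Col9a1, Col2a1, Col8a1 and Col6a1. Their means were 8412 ± 703, 6914 ± 1084, 5113 ± 322, 4552 ± 677 and 4066 ± 125 (SD, n = 3 each). Probe sets differ in how strongly they bind their target, so this is an order of array signals and not of transcript amounts. The order of Col8a1, Col6a1, Col4a2 (3835 ± 1219, SD, n = 3) and Col4a5 (3780 ± 335, SD, n = 3) was within the spread between arrays. In rank by signal, 22 collagen genes lay above the 80th percentile of all probe sets. Each gene was placed by its brightest probe set but the percentile was taken over all probe sets, which raises this count.

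**Figure D1:**
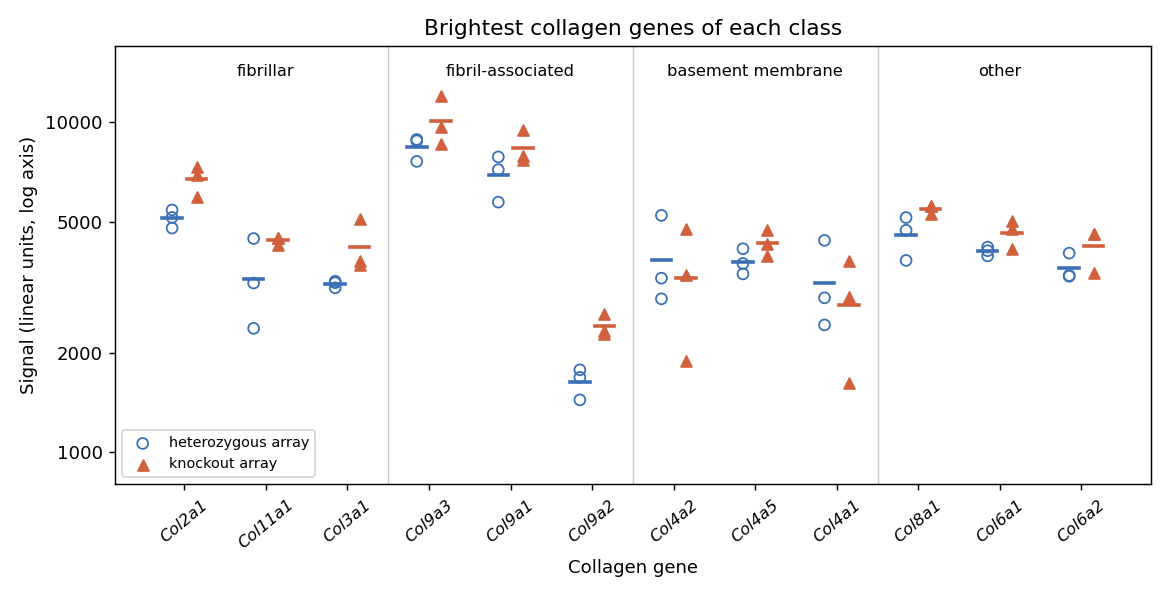
Signal of the 3 brightest collagen genes of each class in each array, on a log axis. Open circles are heterozygous arrays, triangles knockout arrays and short lines the group means. For Col2a1, Col3a1, Col9a2 and Col8a1 all 3 knockout points lie above all 3 heterozygous points, while the groups of the type IV genes overlap.

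Across the family no collagen probe set passed the threshold of a limma adjusted p of 0.05 (0 of 62, smallest adjusted p = 0.371), a threshold that 0.0037% of the 27022 tested probe sets passed. At an unadjusted p under 0.05, 18 of the 62 were higher and 2 lower in knockout arrays, against 5.36% and 2.68% of the 22859 tested probe sets with a single symbol. The 18 include both tested Col14a1 probe sets and the dimmest of Col1a2. These passed the filter only through their knockout values and are no support for that count. Counted by gene, 12 of 37 were higher at that p (32.4%), against 3.21% of all 12421 genes tested, and 2 of 37 were lower (5.41%), against 3.23%. The groups did not overlap for 8 genes that were higher (21.6%, against 6.07% of all genes) and for 2 that were lower (against 7.04%). The median log2 difference was 0.25 over the collagen genes and -0.04 over all genes tested, and 25 of the 37 lay above 0 (67.6%, against 43.1% of all genes). Col14a1 passed the filter only through its knockout values, since its heterozygous mean of 37.1 lay under 46.3. Its place among the 12, the 8 and the 25 is therefore no support for these counts. The 12 became 7 without heterozygous replicate 1, where 2.40% of all genes were higher at that p, and 7 without heterozygous replicate 3, where 1.51% were. The 2 became 0 without heterozygous replicate 3, where 1.43% of all genes were lower at that p. The 8 became 16 without heterozygous replicate 5 and 15 without knockout replicate 6, where 9.47% and 14.2% of all genes were apart, and the 2 lower genes became 4 of 37 without heterozygous replicate 1, where 14.7% of all genes were apart and lower. Centring each array on its median moved the median of all genes to -0.24 and that of the collagen genes to 0.046. Such centring shifts every gene of an array by the same amount, so the gap between both, 0.28, could not change. With that centring 5 collagen genes were higher and 3 lower at an unadjusted p under 0.05, against 1.01% and 14.3% of all genes.

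**Figure D2:**
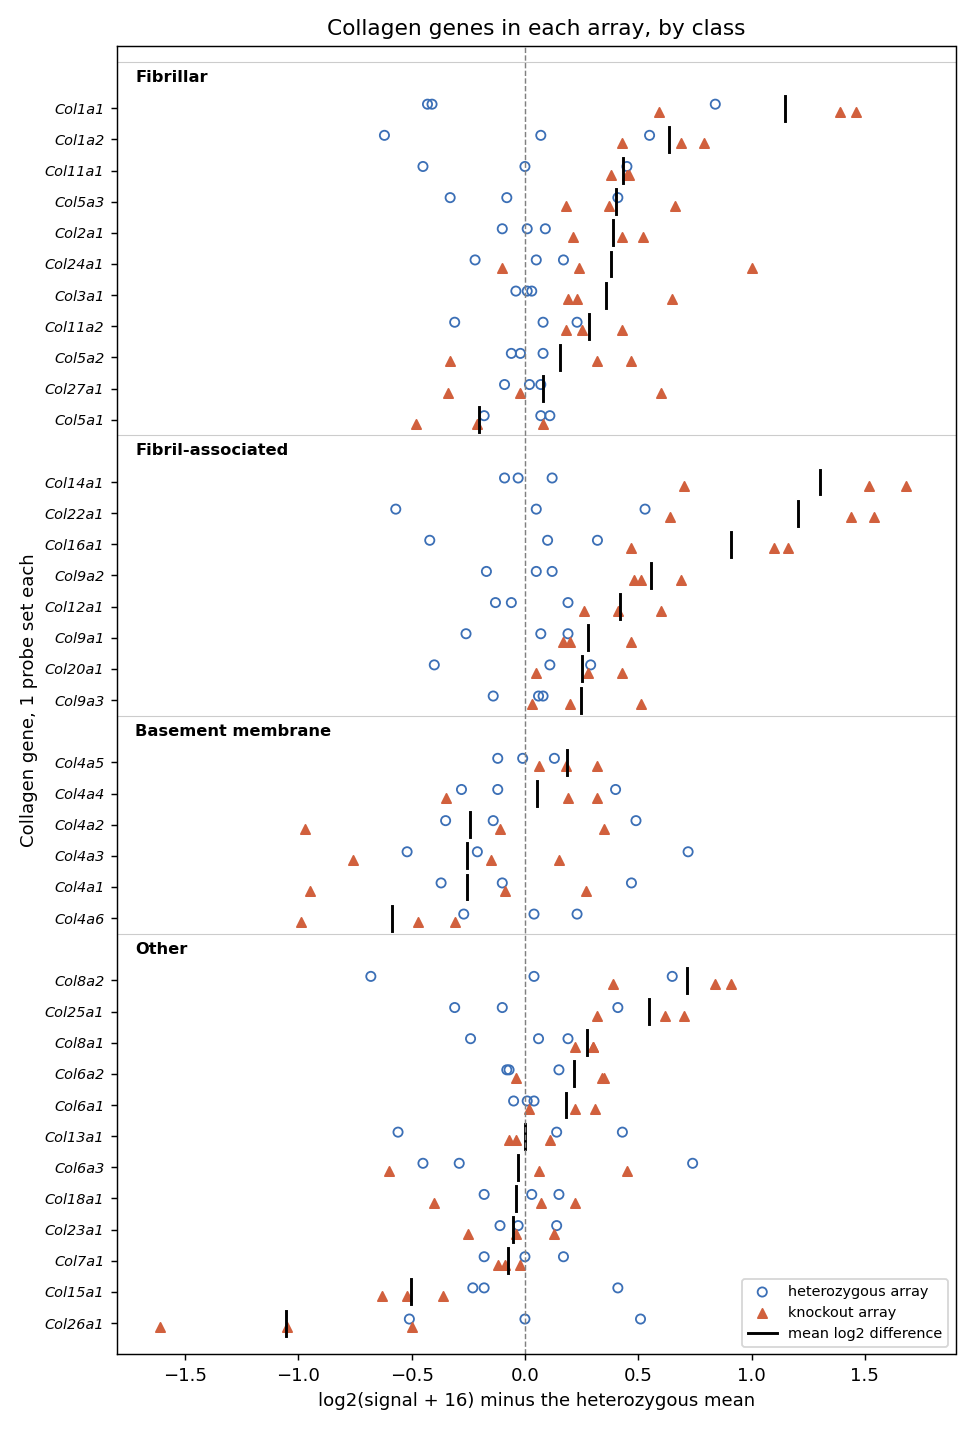
Values of the 37 tested collagen genes in each array as log2(signal + 16) minus the gene's heterozygous mean, grouped by class. Open circles are heterozygous arrays, triangles knockout arrays and the black bar the mean log2 difference, which lies above 0 for 10 of 11 fibrillar and 8 of 8 tested fibril-associated genes and below 0 for 4 of 6 basement membrane genes. Among the fibril-associated genes, Col14a1 passed the filter only through its knockout values.

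Fibrillar collagens lay above 0 in 10 of 11 genes, with a median log2 difference of 0.38. At an unadjusted p under 0.05, 5 were higher (45.45%, against 3.21% of all genes). The chains of types II and XI, which form the fibrils of cartilage, are described first. Col2a1, the only chain of type II collagen, gave 5145.5, 4776 and 5419 in heterozygous replicates 1, 3 and 5, and 6901, 7312 and 5919.6 in knockout replicates 2, 4 and 6. Each knockout array lay above each heterozygous one, and the log2 difference was 0.39 ± 0.10 (SE, limma adjusted p = 0.371). Col11a1, a minor chain that sits inside type II fibrils and limits their width, gave 2375, 3257 and 4441 in heterozygous and 4471, 4451 and 4249 in knockout arrays. Here the heterozygous arrays were spread out and the knockout arrays close together (1037 against 123, SD), and heterozygous replicate 5 lay within the knockout range. The log2 difference of Col11a1 was 0.43 ± 0.19 (SE, limma adjusted p = 0.419), 0.21 without heterozygous replicate 1 and 0.66 without heterozygous replicate 5, and its other probe set gave 0.55. Col11a2, the second type XI chain, had 0.28 ± 0.16 (SE) with overlapping groups.

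Col1a1 and Col1a2 encode the 2 chains of type I collagen, the main fibril of bone, tendon and ligament. Col1a1 gave 1199, 1209.8 and 2911 in heterozygous and 2441, 4486 and 4271 in knockout arrays. Heterozygous replicate 5 lay above knockout replicate 2, so the groups overlapped. The log2 difference was 1.15 ± 0.34 (SE, limma adjusted p = 0.371), 0.93 without heterozygous replicate 1 and 1.57 without heterozygous replicate 5, and the other probe set gave 1.04. For Col1a2 the heterozygous arrays gave 1838, 2974 and 4155 and the knockout arrays 4586, 3811 and 4897. Knockout replicate 4 lay below heterozygous replicate 5, and the log2 difference was 0.63 ± 0.25 (SE, limma adjusted p = 0.377), 0.32 without heterozygous replicate 1. Another bright probe set gave 0.47. The remaining one gave 0.87 but had a heterozygous mean of 38.8, under 46.3, so it passed the filter only through its knockout values.

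Col3a1, the homotrimeric chain of type III collagen in elastic tissue and vessel walls, gave 3298, 3263.5 and 3149.8 in heterozygous and 5100.0, 3687 and 3788 in knockout arrays. The heterozygous arrays were close together (SD 77.5) and the knockout arrays lay above all of them, with a log2 difference of 0.36 ± 0.13 (SE, limma adjusted p = 0.374). Without knockout replicate 2, the highest array, it was 0.21. On its other probe set knockout replicate 4 (1312) lay below each heterozygous array, and the log2 difference was 0.28. The type V chains, which start the assembly of type I fibrils, did not go one way. Col5a2 gave 1252, 1350.1 and 1220.0 in heterozygous and 1769.5, 1011 and 1587.5 in knockout arrays, so knockout replicate 4 was the lowest and the others the highest. Its log2 difference was 0.15 (95% interval -0.30 to 0.60), its other probe set gave -0.04, and it was -0.0061 without knockout replicate 2 and 0.39 without knockout replicate 4. Col5a3 had 0.40 ± 0.24 and Col5a1 -0.20 ± 0.23 (SE), both with overlapping groups. Without heterozygous replicate 1 Col5a3 stood at 0.24. Col27a1 stood at 0.08 and Col24a1 at 0.38, with knockout replicate 4 the highest array for both and values of -0.18 and 0.07 without it.

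All 8 tested fibril-associated genes lay above 0, with a median log2 difference of 0.49. Of these, 4 were higher at an unadjusted p under 0.05 (50%, against 3.21% of all genes). The groups did not overlap for 5 (62.5%, against 6.07% of all genes). Col14a1 is in each of these counts but passed the filter only through its knockout values, so it is no support for them. Type IX collagen, which coats type II fibrils, is made of 3 chains. Col9a2 gave 1687.5, 1443 and 1779 in heterozygous and 2630.4, 2327 and 2278 in knockout arrays, and its log2 difference of 0.56 ± 0.13 (SE, limma adjusted p = 0.371) had the smallest unadjusted p in the family. The groups were 1.47-fold apart on the offset scale and did not overlap. Col9a1 gave 5723, 7175 and 7843 in heterozygous and 7701, 9470.0 and 7871 in knockout arrays, with an overlap by heterozygous replicate 5 and a log2 difference of 0.28 ± 0.13 (SE). Leaving out heterozygous replicate 1 lowered it to 0.15, and leaving out knockout replicate 4 to 0.18. Col9a3, the brightest collagen, gave 7602, 8858 and 8776.5 in heterozygous and 8557, 11954 and 9632 in knockout arrays, a log2 difference of 0.25 ± 0.12 (SE) that fell to 0.11 without knockout replicate 4, the highest array. On its next probe set, with 3177, 3042 and 3437 against 4803, 4993 and 3801, the groups did not overlap and the log2 difference was 0.48. The 3 type IX chains thus lay on the same side of 0 on each tested probe set. The largest gap between Col9a1 and Col9a3 in any array was 0.14 on the log2 scale. Col9a2 was further off, at 0.69 above its heterozygous mean in knockout replicate 2, against 0.17 for Col9a1 and 0.03 for Col9a3. These gaps use the brightest Col9a3 probe set. On its next probe set knockout replicate 2 (4803) lay above each heterozygous array, as it did for Col9a2. Which chain stands off was therefore not settled.

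Col14a1 and Col22a1 were dim fibril-associated collagens. Col14a1, which binds fibrils of skin and tendon, gave 33.8, 36.1 and 41.5 in heterozygous and 153.6, 136.5 and 70.2 in knockout arrays. Its log2 difference was 1.30 ± 0.30 (SE, limma adjusted p = 0.371), a value whose size is uncertain because the heterozygous arrays lay under the filter. The other tested probe set (0.80) passed only through its knockout values as well, with a heterozygous mean of 39.7. Col22a1, known from tissue junctions such as that of muscle and tendon, gave 34.4, 61.5 and 92.1 in heterozygous and 101, 187 and 203 in knockout arrays, a log2 difference of 1.21 ± 0.35 (SE, limma adjusted p = 0.371). Both genes were under or near the filter in heterozygous arrays, where a signal cannot be told well from background. Col16a1, a fibril-associated chain found in cartilage and skin, was brighter, with 435, 254 and 372.5 in heterozygous and 791, 758 and 486 in knockout arrays. Its groups did not overlap and the log2 difference was 0.91 ± 0.26 (SE, limma adjusted p = 0.371). Col12a1 stood at 0.42 ± 0.24 (SE) without overlap of the groups and Col20a1 at 0.25 ± 0.24 (SE) with it, with 0.11 to 0.88 on its other tested probe sets.

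Basement membrane collagens fell on both sides of 0: 2 of 6 lay above 0 and 4 below, none had an unadjusted p under 0.05, and the median log2 difference was -0.25, or 0.0045 without knockout replicate 4. Type IV genes lie in head-to-head pairs, each pair transcribed outward from a common promoter region. Col4a1 and Col4a2, which together form the network found in nearly all basement membranes, vessel walls included, are such a pair on chromosome 8. Near their starts the 30 bases of build GRCm38.p6 at chr8:11312773-11312802, on the strand of Col4a2, hold a CCAAT, in capitals. It begins 32 bases before the annotated start of Col4a2, at 11312805. Col4a1 is annotated to start at 11312826 on the other strand. The stretch thus lies after the Col4a1 start, within its transcribed part, and not between the annotated starts.
Col4a2, plus strand: CCAATttgttggcgctgccccctcccctcg
Col4a1 gave 2432, 4384 and 2937.5 in heterozygous and 2957, 1624 and 3806 in knockout arrays. For Col4a2 the heterozygous arrays gave 2917.5, 5219 and 3369 and the knockout arrays 3442.5, 1889 and 4752. Both genes put the 6 arrays in the same order, with heterozygous replicate 3 highest and knockout replicate 4 lowest. As deviations from the heterozygous mean the 2 genes were within 0.08 of each other in every array, while each ranged over 1.4 or more (1.42 and 1.46). With 1 probe set for each gene, that was the smallest such gap among the 666 pairs of tested collagen genes, whose median was 0.87. Other probe sets of these genes were not compared in this way. The next was between Col6a1 and Col6a2 (0.13), which are also neighbours, on chromosome 10. Not all neighbours were this close, since Col3a1 and Col5a2 on chromosome 1 had a largest gap of 0.51, rank 130 of the 666. The log2 differences were -0.26 ± 0.30 for Col4a1 and -0.24 ± 0.31 for Col4a2 (SE), and turned to 0.089 and 0.12 without knockout replicate 4. Without heterozygous replicate 3 they were -0.02 and 0.0021.

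The median of the endothelial markers moved with this pair, but Kdr did not. In knockout replicate 4, where the other endothelial markers were lowest, Kdr gave 579, above 429, 539 and 433 in heterozygous replicates 1, 3 and 5. Its log2 difference was 0.32. All 7 markers on the list passed the filter, and their summed signal ranged from 5174 to 9146 in heterozygous and from 2429 to 8099 in knockout arrays. Their median deviation was -1.63 in knockout replicate 4, 0.31 in knockout replicate 6 and 0.48 in heterozygous replicate 3, against -0.95, 0.27 and 0.47 for Col4a1. Pericyte and smooth muscle markers, all 7 above the filter, had -0.70 in knockout replicate 4. The part of vessel content in the type IV values was not tested.

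**Figure D3:**
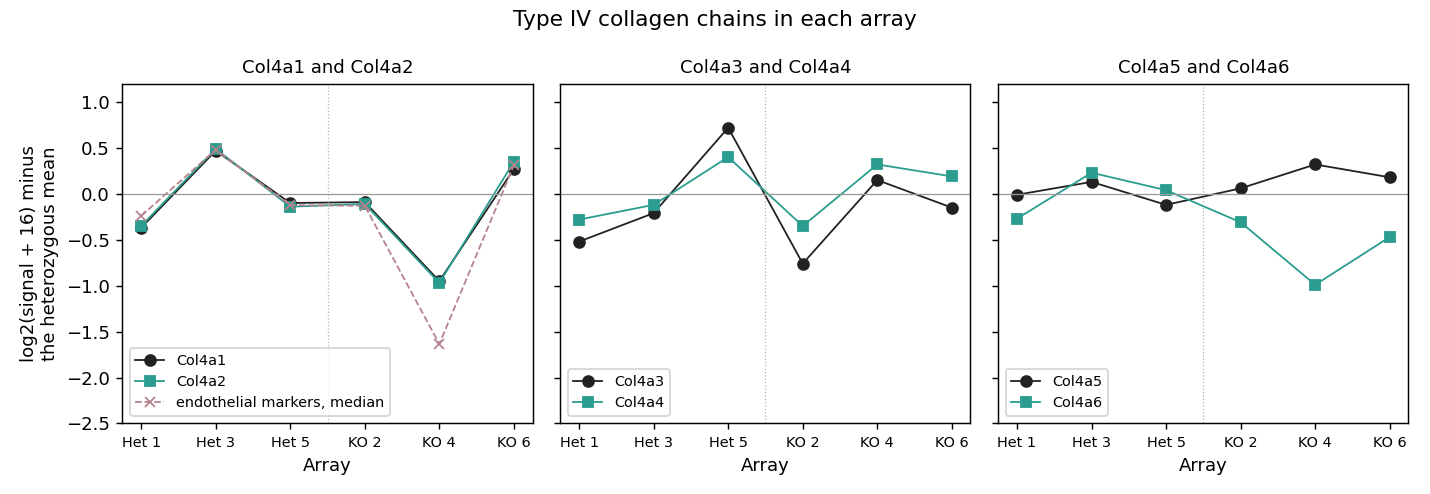
Type IV chains in the 6 arrays as log2(signal + 16) minus the heterozygous mean, 1 panel for each pair of neighbouring genes, with the median of 7 endothelial markers dashed in the panel of Col4a1 and Col4a2. Lines only join points of a gene. Col4a1 and Col4a2 lie on each other and are lowest in knockout replicate 4, Col4a3 and Col4a4 are highest in heterozygous replicate 5, and Col4a5 and Col4a6 part in the knockout arrays on the probe sets used. The other tested probe set of Col4a6, not drawn, had a log2 difference of 0.19.

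The other type IV chains followed other arrays. Col4a3 and Col4a4, neighbours on chromosome 1, make the network of the kidney glomerulus and of parts of the cochlea together with Col4a5. Col4a3 gave 1352, 1681 and 3212.5 in heterozygous and 1136, 2151 and 1745 in knockout arrays, and Col4a4 gave 1008, 1126 and 1629.6 against 961, 1532 and 1401. Both were highest in heterozygous replicate 5 and lowest in knockout replicate 2, with a largest gap of 0.42 between their deviations. Col4a4 had a log2 difference of 0.05 (95% interval -0.45 to 0.55) on its brightest probe set and -0.22 and 0.41 on the others, and it changed side when any of 4 arrays was left out (-0.088 to 0.25). Col4a3 had -0.26 ± 0.31 (SE), 0.10 without heterozygous replicate 5 and -0.46 without knockout replicate 4. Col4a5 and Col4a6 are neighbours on chromosome X and had the loosest link of the type IV pairs on the probe sets used (largest gap 1.31). On the other, dimmer tested probe set of Col4a6, knockout replicates 4 and 6 were the highest arrays, as they were for Col4a5. How loose the link is was therefore not settled. Col4a5 gave 3733, 4136 and 3470.1 in heterozygous and 3919, 4716 and 4267 in knockout arrays, a log2 difference of 0.19 ± 0.11 (SE), 0.12 without knockout replicate 4, with -0.03 on its dimmer probe set. Col4a6, dim at 86.8, 129 and 111 in heterozygous and 84.0, 46.5 and 73.7 in knockout arrays, had groups that did not overlap and a log2 difference of -0.59 ± 0.27 (SE, limma adjusted p = 0.444), but -0.39 without knockout replicate 4 and 0.19 on its other probe set.

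Of the 12 tested collagens outside these classes, 5 lay above 0 and 7 below, with a median of -0.02. Type VI chains form beaded microfibrils around cells. Col6a1 gave 4079.8, 4184 and 3935 in heterozygous and 5035.5, 4741 and 4115 in knockout arrays, and Col6a2 gave 3433, 4011 and 3414 against 4581, 4598 and 3503.5. Both were highest in knockout replicates 2 and 4 on these probe sets, with knockout replicate 6 among the heterozygous arrays. On the other probe set of Col6a2 heterozygous replicate 3 was the highest array (2286), and the log2 difference was 0.11. Their log2 differences were 0.18 (95% interval -0.04 to 0.41) and 0.22 (95% interval -0.07 to 0.50), and that of Col6a1 turned to -0.017 under median centring. Col6a3, the third chain, was dim here (91.5 in heterozygous and 86.2 in knockout arrays) and stood at -0.03 ± 0.38 (SE), or 0.25 without knockout replicate 4.

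Type VIII chains form the hexagonal network of Descemet's membrane and are also made in vessel walls. Col8a1 gave 3812, 4705 and 5140.1 in heterozygous and 5563, 5257 and 5561 in knockout arrays, without overlap. Its log2 difference was 0.27 ± 0.11 (SE, limma adjusted p = 0.405), 0.15 without heterozygous replicate 1. On its other 2 probe sets the groups overlapped, at 0.26 and 0.15. Col8a2 gave 432.5, 724 and 1111 in heterozygous and 1339, 1275 and 926 in knockout arrays, and its log2 difference was 0.71 ± 0.30 (SE, limma adjusted p = 0.406), 0.37 without heterozygous replicate 1. Col25a1, a transmembrane collagen first found in amyloid plaques and needed for motor innervation, gave 1304, 1514 and 2162 in heterozygous and 2652, 2505.5 and 2023 in knockout arrays. Knockout replicate 6 lay below heterozygous replicate 5, and the log2 difference was 0.55 ± 0.19 (SE, limma adjusted p = 0.372).

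Col15a1 and Col26a1 had an unadjusted p under 0.05 in the other direction. Col15a1, a multiplexin that links the basement membranes of capillaries and muscle to the fibrils around them, gave 1595.6, 2419 and 1545 in heterozygous and 1166, 1406 and 1261 in knockout arrays. Each knockout array lay below each heterozygous one, with a log2 difference of -0.50 ± 0.18 (SE, limma adjusted p = 0.374). It was -0.30 without heterozygous replicate 3. Without knockout replicate 4, the array with the lowest summed endothelial signal, it was -0.57. Its relative Col18a1, whose end fragment is endostatin, gave 1089.8, 1005 and 862 in heterozygous and 1146, 738 and 1028 in knockout arrays, with a log2 difference of -0.04 (95% interval -0.47 to 0.39) and 0.12 on its other probe set. Without knockout replicate 4 Col18a1 stood at 0.14, and without heterozygous replicate 1 at 0.04. Col26a1 gave 159.6, 339 and 233 in heterozygous and 160.5, 104 and 65.7 in knockout arrays, a log2 difference of -1.05 ± 0.34 (SE, limma adjusted p = 0.371), with knockout replicate 2 above heterozygous replicate 1. The remaining Col7a1, Col13a1 and Col23a1 lay between -0.08 and -0.0017 with overlapping groups, and between -0.11 and -0.056 without knockout replicate 4.

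Several tested probe sets were present for 20 genes, and in 15 of them all fell on the same side of 0. The 5 with probe sets on both sides were Col4a4, Col4a5, Col4a6, Col5a2 and Col18a1, so their direction was not settled. None of these 5 had an unadjusted p under 0.05 on the probe set used.

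Markers of bone cells lay mostly above 0, as the fibrillar genes did. Of 7 osteoblast and osteocyte markers on the array 5 passed the filter, and Ifitm5 and Mepe lay below it. Their summed signal was 2775 to 5209 in heterozygous and 5282 to 8938 in knockout arrays, with Dmp1, an osteocyte phosphoprotein, at a log2 difference of 1.11, Ibsp, a bone sialoprotein, at 1.34 and Phex, a phosphate-regulating peptidase of osteocytes, at 1.62. Sp7, a transcription factor of osteoblasts, stood at 0.73 with overlapping groups, and Alpl, an alkaline phosphatase, at -0.11. Their median deviation was -0.52, -0.06 and 0.47 in heterozygous replicates 1, 3 and 5 and 0.65, 1.40 and 1.40 in knockout replicates 2, 4 and 6. For Col1a1 the deviations were -0.43, -0.41 and 0.84 in the heterozygous and 0.59, 1.46 and 1.39 in the knockout arrays. The median of the fibrillar class had another order among the knockout arrays, with 0.43, 0.43 and 0.23, lowest in replicate 6, while the bone markers were lowest in replicate 2. All 3 tested osteoclast markers lay above 0 (Mmp9 2.19, Acp5 1.37 and Ctsk 0.82), with Mmp9 at a heterozygous mean of 32.9, under the filter, while Atp6v0d2, Calcr, Dcstamp and Ocstamp were below the filter. Cartilage markers other than collagens had 5 of 8 members above the filter, without Hapln1, Matn3 and Snorc, and a summed signal of 10110 to 12727 in heterozygous and 13724 to 14870 in knockout arrays. Aggrecan (Acan) stood at 0.48 and chondromodulin (Cnmd) at 0.35, with Sox9 at 0.15, Comp at -0.06 and Matn1 at -0.12. The median over the list was 0.15, and none had an unadjusted p under 0.05. Spiral ligament fibrocyte markers, all 7 above the filter, had a summed signal of 31404 to 37652 in heterozygous and 37515 to 39211 in knockout arrays, with 4 above 0 and 3 below. Car3 stood at 0.21 and Otor at 0.26, while Coch stood at -0.31 and Slc26a2, a sulfate transporter, at -0.38, each knockout array of the latter below each heterozygous one. Among 6 fibroblast markers, Dpt, Pi16 and Thy1 lay below the filter, while Lum stood at -1.61, Dcn at -0.05 and Pdgfra at 0.04. The part of bone, cartilage or ligament content in the collagen values was not tested.

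**Figure D4:**
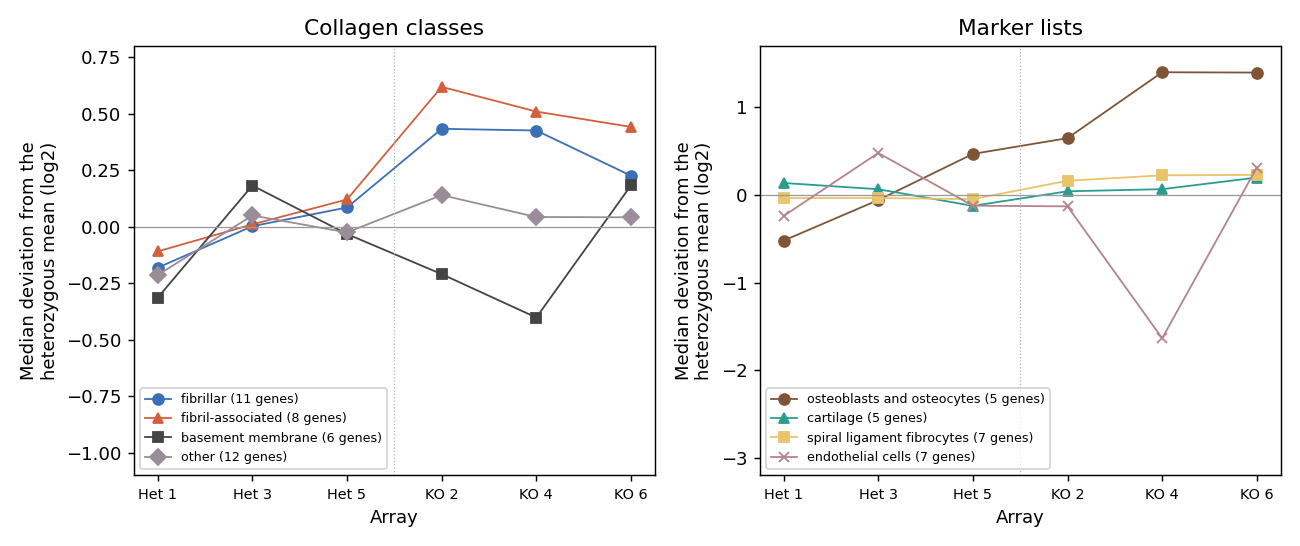
Median deviation from the heterozygous mean (log2) in each array, on the left for the tested genes of each collagen class and on the right for 4 marker lists; the scales of the panels differ and lines only join points of a list. Fibrillar genes lie between -0.18 and 0.09 in heterozygous and between 0.23 and 0.43 in knockout arrays, and basement membrane genes are lowest in knockout replicate 4.

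Genes that make and handle collagen were counted from lists fixed beside the classes, and none of their members passed the limma adjusted threshold. For comparison, 43.1% of all genes tested lay above 0. At an unadjusted p under 0.05, 3.21% of all genes were higher and 3.23% lower. Of 18 tested genes of chain folding and modification, 14 lay above 0 and 4 below, with a median of 0.06 and none at an unadjusted p under 0.05. Mia3 (TANGO1), which loads procollagen into transport carriers, stood at 0.28 ± 0.14 (SE), P3h3, a prolyl 3-hydroxylase, at 0.32 ± 0.18 (SE), and P4hb, the beta subunit of prolyl 4-hydroxylase, at 0.13 ± 0.09 (SE). Serpinh1, the collagen chaperone HSP47, stood at 0.12 (95% interval -0.15 to 0.39). Among 10 genes of procollagen processing and cross-linking, 6 lay above and 4 below 0. Pcolce, a secreted protein that speeds the removal of the C-terminal propeptide by Bmp1, was the only one at an unadjusted p under 0.05. It gave 3765, 4198 and 4473 in heterozygous and 6243, 6327 and 5844 in knockout arrays with a log2 difference of 0.57 ± 0.09 (SE, limma adjusted p = 0.203), and every knockout array lay above every heterozygous array. Sparc, a collagen-binding protein, stood at 0.21 ± 0.10 (SE) and Pcolce2, a relative of Pcolce, at -0.48 ± 0.26 (SE). Lox, which cross-links fibrils, had -0.72 ± 0.54 (SE), with an SD of 1574 around a heterozygous mean of 1687.

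Collagen receptors were even, with 4 of 8 tested above 0, a median of 0.02 and none at an unadjusted p under 0.05. Mrc2, an uptake receptor for collagen, stood at 0.24 ± 0.12 (SE), Itga2 at -0.63 ± 0.34 (SE) and Lair1, an inhibitory receptor of immune cells, at 0.26 ± 0.28 (SE). Of 13 tested partners of type IV collagen in basement membranes 8 lay above and 5 below 0, with a median of 0.05. Agrn (agrin) alone had an unadjusted p under 0.05 (1 of 13, against 3.21% of all genes higher and 3.23% lower). It stood at 0.24 ± 0.11 (SE, limma adjusted p = 0.420), followed by Hspg2 (perlecan) at 0.32 ± 0.16 (SE) and Nid2 (nidogen 2) at -0.37 ± 0.21 (SE).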

How the data were processed

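Total RNA was extracted with a Qiagen kit, amplified and labelled by the NuGEN Ovation method and hybridised to Affymetrix mouse expression arrays, per the labels' protocols. The deposited values are linear signal intensity per probe set, which the authors made with GCOS (version unstated), as the submitters' processing notes say. Once the outer 2% on both sides were trimmed, every array averaged 500.002, a common scaling done before deposit. No coordinates come with the arrays.

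The 64 control probe sets were left out. Probe sets with a mean signal at or above the 40th percentile (27022) were fitted as log2(signal + 16) in limma 3.58.1 (R 4.3.3; lmFit and trended eBayes). Tests were two-sided, and p-values were adjusted by Benjamini-Hochberg over all of them, with a threshold of 0.05. The number of arrays limits the precision. The fit was tested on simulated data. Symbols came from the platform annotation (34945 probe sets with 1 symbol, 932 with several, 9160 with none). All 42 collagen genes matched RefSeq by gene identifier. Values in every array are given for the 3 brightest genes of each class, those at an unadjusted p under 0.05, and those whose probe sets disagreed. From other lists up to 3 genes with the smallest p were named, with a few others chosen after their values were seen. The members and lists were chosen with earlier results of these data known. Figures used matplotlib 3.10.9 in Python 3.11.15.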

Additional observations from a re-analysis of the deposited data

How the results depend on the processing

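The 18 alternatives were a floor of 32, offsets of 1 and of 64, normalisation by quantiles, by cyclic loess or by centring on medians, averaging the probe sets of a gene, array weights, a robust or untrended variance, dropping the filter or raising it to the 60th percentile, and leaving out each array in turn. No collagen gene passed the limma adjusted threshold in any of them. Median centring gave 5 genes higher at an unadjusted p under 0.05 (1.01% of all genes), 4 apart and higher (1.55%), 4 apart and lower (24.9%), and medians of 0.046 over all collagen genes, 0.18 for fibrillar, 0.29 for fibril-associated and -0.22 for other genes. It also turned Col5a2 (-0.047), Col4a4 (-0.15), Col4a5 (-0.014), Col6a1 (-0.017) and Col27a1 (-0.12). That left 20 of 37 collagen genes above 0, where the median of all genes was -0.24. No variance trend gave 8 genes higher and 3 lower at an unadjusted p under 0.05, against 3.07% and 2.71% of all genes. The 60th percentile filter, which tests fewer genes, gave 1 lower at that p (3.18% of all genes). It gave 5 apart and higher (5.18%) and 1 apart and lower (7.32%), with medians of 0.28 for fibril-associated and 0.22 for other genes. Genes apart and lower were 4 with quantile and with cyclic loess normalisation (8.78% and 7.52% of all genes). With the mean of probe sets there was 1 (7.085% of all genes). Array weights gave 9 genes higher and 2 lower at an unadjusted p under 0.05 (4.35% and 5.19% of all genes). They lowered Col1a1 to 0.68 and Col11a1 to 0.26, neither of them at that p. The same weights moved the median of other genes to 0.16, Col4a4 to -0.23, Col18a1 to 0.17, Col27a1 to -0.060 and Col6a3 to 0.16. Col18a1 was 0.0077 with cyclic loess and 0.043 with the mean of probe sets. The cause was not tested.

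Leaving out each array in turn gave 7 to 14 genes higher and 0 to 3 lower at an unadjusted p under 0.05 (1.51 to 6.42% and 1.43 to 6.41% of all genes), 8 to 16 apart and higher and 2 to 4 apart and lower (8.44 to 14.2% and 9.94 to 17.0%). The medians ranged from 0.18 to 0.28 for all collagen genes, 0.27 to 0.42 for fibrillar, -0.43 to 0.0045 for basement membrane, 0.42 to 0.54 for fibril-associated and -0.027 to 0.15 for other genes. The single-gene ranges that crossed 0 were -0.52 to 0.089 for Col4a1, -0.54 to 0.12 for Col4a2, -0.088 to 0.25 for Col4a4, -0.0061 to 0.39 for Col5a2, -0.17 to 0.14 for Col18a1, -0.51 to 0.10 for Col4a3, -0.18 to 0.29 for Col27a1, -0.27 to 0.34 for Col6a3, -0.28 to 0.21 for Col13a1, -0.16 to 0.011 for Col7a1 and -0.14 to 0.046 for Col23a1. Dim genes near the filter, such as Col14a1, Col22a1 and Col4a6, are the least certain in size. No paired analysis was run, because the labels do not say whether any arrays belong together as pairs.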
